A study of Homo sapiens with 6 samples.

Results

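The genes described here are the long noncoding RNA genes that host small nucleolar RNAs (snoRNAs), followed in HSC3 cells, an established human oral squamous cell carcinoma line, after knockdown of the long noncoding RNA DLEU1. They were taken from the GENCODE annotation of hg19 as the lncRNA genes named SNHG and a number, plus GAS5, ZFAS1, DANCR and EPB41L4A-AS1. That gave 32 genes, among 24135 protein-coding and lncRNA genes that also had a curated RefSeq transcript. Chromatin immunoprecipitation-sequencing of H3K27ac, an acetylation of active promoters and enhancers, and of H3K4me3, a trimethylation of active promoters, had been performed 72 h after transfection. The 2 groups were cells transfected with a control siRNA (siCONT) and cells transfected with an siRNA against DLEU1 (siDLEU1, which the study's text names siDLEU1-2), and they differed in nothing else that the labels give. There was 1 library for each siRNA and mark, so that no difference below has a replicate check and none was tested. The values used at each gene were taken from regions touching a window of 1 kb upstream and downstream of each annotated transcription start site (TSS). The first was the percentile rank of the strongest region within its own list by fold enrichment, on which 100 is the strongest region of the list and 0 means no region. The second was the number of sequenced fragments stacked at the summit, recovered as whole numbers from the deposited fold enrichment and p-value, and given per 1000000 reads estimated for the library (FPM). A change of 20 percentile points or more is called a rise or a fall.

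A snoRNA is a short guide RNA of the nucleolus. Most are cut out of introns while the host transcript is spliced, C/D box snoRNAs direct 2′-O-methylation of ribosomal RNA, H/ACA box snoRNAs direct pseudouridylation, and the related scaRNAs act on spliceosomal RNAs in Cajal bodies. The spliced hosts are transcribed strongly in growing cells, and several of them, GAS5 among them, begin with a pyrimidine tract like that of ribosomal protein mRNAs and are degraded by nonsense-mediated decay. By the RefSeq annotation, 30 of the 32 genes enclosed at least 1 snoRNA or scaRNA, 147 in all, and SNHG27 and SNHG28 enclosed none. SNHG14, the imprinted host of the SNORD115 and SNORD116 arrays, held 83 of them, GAS5 held 11 and SNHG1 held 8, while 16 genes held exactly 1. C/D box snoRNAs lay in 15 genes, H/ACA box snoRNAs in 13 and scaRNAs in 4.

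The sequence at the start site is shown first for 6 hosts in which a run of at least 7 C or T bases lay close to the annotated start. Each line gives 20 bases before to 20 bases after the first base of the canonical transcript, in the direction of transcription, with the longest C or T run in capitals, read from hg19.
GAS5 (chr1:173837107-173837147, reverse strand): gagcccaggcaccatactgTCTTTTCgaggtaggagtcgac
ZFAS1 (chr20:47895159-47895199, forward strand): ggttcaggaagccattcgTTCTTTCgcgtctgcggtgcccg
SNHG29 (chr17:16342331-16342371, forward strand): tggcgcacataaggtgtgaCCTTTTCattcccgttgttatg
SNHG16 (chr17:74553837-74553877, forward strand): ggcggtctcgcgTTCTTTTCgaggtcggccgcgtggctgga
SNHG25 (chr17:62223277-62223317, forward strand): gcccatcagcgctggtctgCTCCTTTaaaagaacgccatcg
DANCR (chr4:53578648-53578688, forward strand): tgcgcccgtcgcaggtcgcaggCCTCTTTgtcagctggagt
Of these 6, the run spanned the annotated start itself in GAS5, SNHG29, SNHG25 and ZFAS1. A run of at least 7 also spanned it at SNHG8 and SNHG12, which are not shown in this list. A run of 7 or more was present within 20 bases of the start at 10 of the 32 genes (31.2%), against 24.98% of all genes and 87.4% of ribosomal protein genes. With 8 or more bases required it was present at 4 of the 32 (12.5%), against 17.2% of all genes and 85.1% of ribosomal protein genes, whose median run was 11 bases against 5 here. No run in this window says only that the letters are not there, and an annotated start that lies some bases from the one in use would miss it.

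Whole promoters, from 250 bases before to 50 bases from the canonical start, are shown for 4 genes on which the comparisons below turn. Capitals mark the E-box CACGTG, the GC box GGGCGG, the CCAAT box CCAAT, the TATA box TATAAA and the ETS motif CCGGAAG on either strand.
GAS5 (chr1:173837078-173837377, reverse strand): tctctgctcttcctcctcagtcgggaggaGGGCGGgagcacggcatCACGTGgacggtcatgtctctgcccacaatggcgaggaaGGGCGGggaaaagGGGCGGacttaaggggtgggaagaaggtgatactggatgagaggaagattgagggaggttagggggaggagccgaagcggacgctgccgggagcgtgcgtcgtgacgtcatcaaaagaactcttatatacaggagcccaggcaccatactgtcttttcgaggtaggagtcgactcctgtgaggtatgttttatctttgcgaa
ZFAS1 (chr20:47894929-47895228, forward strand): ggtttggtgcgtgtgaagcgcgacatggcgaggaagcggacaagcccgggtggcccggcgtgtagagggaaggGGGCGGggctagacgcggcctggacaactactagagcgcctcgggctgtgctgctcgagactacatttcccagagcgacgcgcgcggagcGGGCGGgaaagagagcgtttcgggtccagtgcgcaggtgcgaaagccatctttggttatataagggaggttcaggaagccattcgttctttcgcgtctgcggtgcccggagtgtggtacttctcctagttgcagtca
SNHG8 (chr4:119199613-119199912, forward strand): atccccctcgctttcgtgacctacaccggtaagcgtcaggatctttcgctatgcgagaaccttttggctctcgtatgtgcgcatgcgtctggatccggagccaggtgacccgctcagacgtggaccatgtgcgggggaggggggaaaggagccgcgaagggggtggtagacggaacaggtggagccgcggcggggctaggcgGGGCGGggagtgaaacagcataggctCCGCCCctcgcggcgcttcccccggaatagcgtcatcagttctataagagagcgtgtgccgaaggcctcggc
SNHG4 (chr5:138609570-138609869, forward strand): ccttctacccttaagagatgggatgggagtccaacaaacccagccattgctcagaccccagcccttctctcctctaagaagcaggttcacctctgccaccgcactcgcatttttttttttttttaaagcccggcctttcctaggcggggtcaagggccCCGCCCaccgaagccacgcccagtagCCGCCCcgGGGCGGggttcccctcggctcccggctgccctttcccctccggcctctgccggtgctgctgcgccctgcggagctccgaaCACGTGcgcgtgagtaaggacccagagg
The E-box, to which MYC with MAX is known to bind, was found at 6 of the 32 promoters (GAS5, SNHG4, SNHG7, SNHG9, SNHG25 and SNHG30), or 18.8%, and in 8.30% of all promoters of this length. GC boxes were found at 22 (68.8%, against 55.5%), CCAAT boxes at 12 (37.5%, against 35.7%), TATA boxes at 4 (12.5%, against 10.4%) and the ETS motif at 3 (9.38%, against 12.5%). Most hosts are marked, so genes with an H3K27ac region in siCONT within 1 kb of any start were also compared. In their canonical promoters the GC box was less common at the 29 marked hosts (69.0%) than at all marked genes (74.1%). The E-box was found at 20.7% and 10.2%, and the ETS motif at 10.3% and 19.6%. The region need not lie at that promoter, and at SNHG20 its summit was 2129 bp from the canonical start. These are matches of letters, and no factor's binding was measured.

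As for the libraries, 19705 H3K27ac regions had been called in siCONT and 17672 in siDLEU1, beside 58582 and 56943 H3K4me3 regions. The estimated depths were 21.5 and 29.4 M reads for H3K27ac and 28.4 and 22.3 M for H3K4me3, with 7.18 and 6.73 M in the 2 controls. The squamous markers KRT5, KRT14, TP63 and SFN had both marks in all lists, and of the blood, T cell, glial and liver markers PTPRC, CD3E, GFAP and ALB only GFAP had a region, a weak H3K4me3 one at percentiles 17.3 and 24.2.

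Nearly all of the snoRNA hosts carried both marks, with either siRNA. H3K27ac and H3K4me3 regions lay at 29 of the 32 genes (90.6%) in siCONT, and at the same 29 in siDLEU1. In siCONT an H3K27ac region lay at 56.3% of all genes, at 33.1% of the other lncRNA genes, at 86.6% of the 254 protein-coding genes that host a snoRNA, and at 97.7% of the 87 cytosolic ribosomal protein genes. The share of marked snoRNA hosts thus lay between those of the protein-coding hosts and the ribosomal protein genes. SNHG14, the neuronally expressed host of the Prader-Willi region, SNHG18, host of SNORD123, and SNHG27 had no region in any of the 4 lists. No member gained or lost its mark. Across all genes, 5.6% of those with H3K27ac in either list had it in siCONT only and 0.279% in siDLEU1 only, and for H3K4me3 these shares were 3.15% and 2.71%.

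The marked hosts ranked fairly high in their lists, as did protein-coding hosts and ribosomal protein genes. The median H3K27ac percentile was 77.7 in siCONT, from 33.9 at SNHG22 to 97.7 at SNHG7, and 76.8 in siDLEU1, from 14.3 at SNHG22 to 99.1 at SNHG10. Across all genes the medians were 71.0 and 68.5, for protein-coding hosts 80.0 and 77.8, and for ribosomal protein genes 80.8 and 77.4. The median H3K4me3 percentile was 86.0 in siCONT and 89.3 in siDLEU1, with the highest at SNHG16 (99.0, siCONT) and SNHG29 (99.6, siDLEU1) and the lowest at SNHG22 (34.6 and 32.7). The H3K4me3 medians were 83.2 and 84.5 for all genes, 90.0 and 91.9 for protein-coding hosts, and 87.5 and 94.0 for ribosomal protein genes. The strongest H3K27ac summit lay downstream of the nearest TSS at 21 of the 29 genes in siCONT and at 19 in siDLEU1, and within 500 bp of it at 28 and 26. For 18 genes in siCONT that summit fell in an intron of the canonical transcript and for 9 in its first exon.

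**Figure D1:**
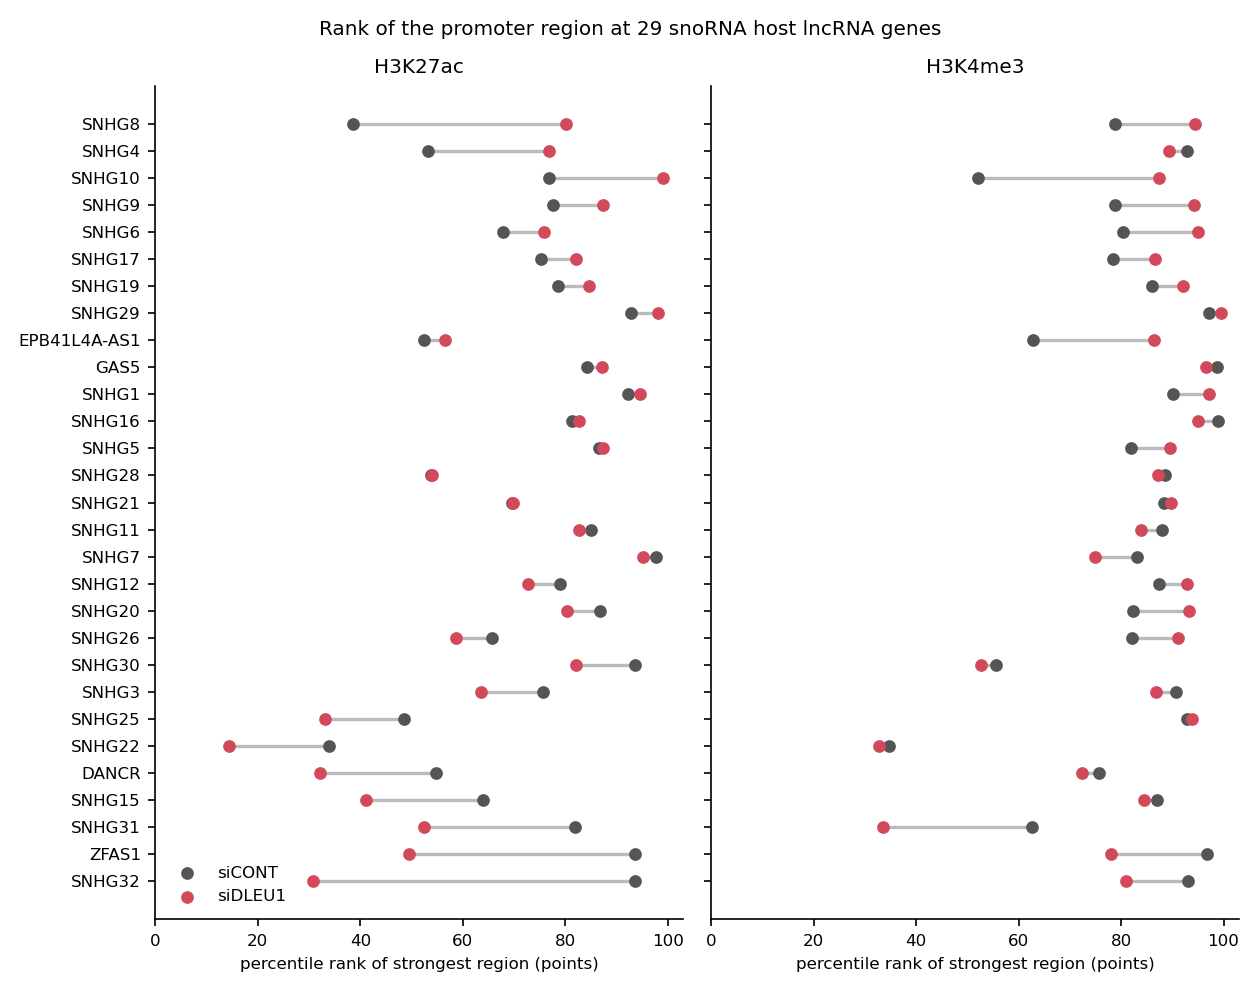
Percentile rank of the strongest region (horizontal axis, 0 to 100 points) at the 29 marked snoRNA host genes, for H3K27ac (left) and H3K4me3 (right), with siCONT in grey and siDLEU1 in red and 1 library per point, ordered by the H3K27ac change. The H3K27ac ranks of SNHG32 (93.6 to 30.8) and ZFAS1 (93.6 to 49.5) moved down furthest, SNHG8 (38.5 to 80.1) moved up furthest, and most H3K4me3 ranks stayed within 20 points.

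The first comparison asked how H3K27ac at the snoRNA hosts differed after DLEU1 knockdown. Nearly every host had a lower FPM in the siDLEU1 library, by about as much as genes in general. FPM does not separate a change of mark from a change in how well a library was enriched. GAS5, a growth-arrest transcript and host of 11 snoRNAs at chr1:173827697-173838020 on the reverse strand, had 117 fragments at its highest H3K27ac summit in siCONT and 95 in siDLEU1, or 5.45 and 3.23 FPM. SNHG1, host of 8 C/D box snoRNAs at chr11:62619450-62623425, had 170 and 128, or 7.92 and 4.35 FPM. ZFAS1, the host of SNORD12, SNORD12B and SNORD12C at chr20:47894715-47916137, had 159 and 118, or 7.40 and 4.01 FPM. In all 3 genes the siDLEU1 value was the lower one, although that library was the deeper one.
DANCR, the host of SNORA26 that is known for holding back differentiation, had 69 and 61 fragments (3.21 and 2.07 FPM). EPB41L4A-AS1, the host of SNORA13, had 135 and 90 (6.29 and 3.06 FPM), which was the lowest log2 ratio of the 29 genes, −1.04 (95% counting interval −1.44 to −0.64). The highest 2 values in siCONT, 183 fragments at SNHG10 and 178 at SNHG29, were 153 and 139 in siDLEU1.

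Over the 29 genes the median was 5.40 FPM in siCONT (range 2.002 to 8.52) and 3.23 in siDLEU1 (range 1.05 to 5.20). FPM was lower in siDLEU1 at 28 of the 29 and higher at 1, where 99.3% of all genes with regions in both lists were lower and 0.701% higher, so this count is the background and not a result about the hosts. The median log2 ratio was −0.75, beside −0.79 for all genes, −0.79 for other lncRNA genes, −0.79 for protein-coding hosts and −0.79 for ribosomal protein genes. The quartiles were −0.85 and −0.64 for the hosts and −0.92 and −0.64 for all genes. Hosts of C/D box snoRNAs only (11 marked genes) had a median log2 ratio of −0.75, hosts of H/ACA box snoRNAs only (11 genes) −0.77 and hosts of a scaRNA only (4 genes) −0.78.

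SNHG4, the host of SNORA74A and SNORA74D, was apart from the others. Its H3K27ac summit held 67 fragments in siCONT and 95 in siDLEU1, or 3.12 and 3.23 FPM. The log2 ratio was 0.05, with a 95% counting interval of −0.42 to 0.52 that left out the all-gene median. SNHG4 was the only host of which this was true, and 3.35% of all genes marked in both lists had an interval above that median and 2.06% one below it, so that 1 of 29 is a share near the background. The intervals are exact and cover the counting of fragments only, which are PCR products without molecular identifiers. SNHG4 and MATR3, a gene of an RNA-binding nuclear matrix protein, share a start site, and the mark cannot be assigned to either.

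**Figure D2:**
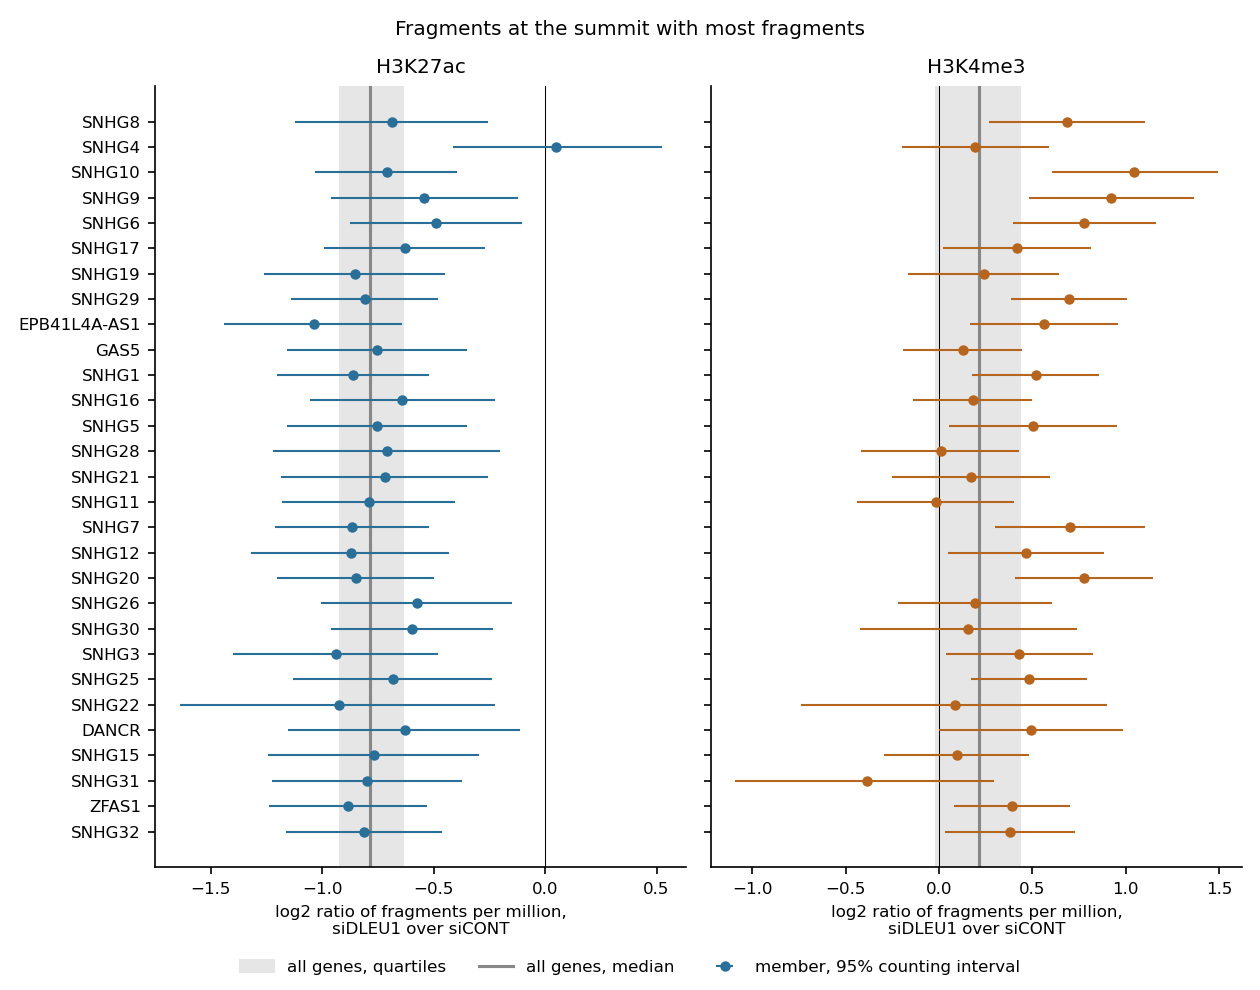
Log2 ratio of FPM, siDLEU1 over siCONT, at the summit with the most fragments of each host (points, with 95% counting intervals, 1 library per siRNA), for H3K27ac (left) and H3K4me3 (right), beside the median (line) and quartiles (band) of all genes. For H3K27ac all hosts but SNHG4 lie below 0 and around the all-gene median of −0.79, and for H3K4me3 all but SNHG11 and SNHG31 lie above 0, with SNHG10 the highest at 1.05.

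By rank within the lists, a few hosts moved a long way in each direction. With ranks by fold enrichment the median change was 0.09 percentile points, against −4.59 for all genes, −6.71 for other lncRNA genes, −1.25 for protein-coding hosts and −0.82 for ribosomal protein genes. Of the 29 hosts, 14 were lower and 15 higher, where 62.8% of all genes with a siCONT region were lower. With ranks by fragments, 20 were lower and 9 higher and the median change was −2.35, and with only regions of −log10 q of at least 10 it was −7.61, against −11.2 for all genes. Ranks fell by 20 points or more at 5 hosts, with a background of 19.3% of the 13633 genes marked in either list, and rose by as much at 3, with a background of 6.98%. As shares of the 29, neither count stands far from its background.

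The 5 that fell were SNHG32, ZFAS1, SNHG31, SNHG15 and DANCR. SNHG32, the host of SNORD48 and SNORD52 in the class III major histocompatibility region (chr6:31802385-31807543), went from percentile 93.6 to 30.8, and its fold enrichment was 31.0 in siCONT and 7.3 in siDLEU1. Its fragments were 159 and 124, a log2 ratio of −0.81 that was close to the all-gene median. The local background that the peak caller had divided by was 0.75 control fragments at the siCONT summit and 3 at the siDLEU1 summit. ZFAS1 went from 93.6 to 49.5. Its siCONT list held 1 region of 2823 bp there (chr20:47893343-47896165), and the siDLEU1 list held 3, of 730, 207 and 1792 bp. The 118 fragments just downstream of the ZFAS1 start were in the third of these, at percentile 27.8. The local background there was 3 control fragments, as at the siDLEU1 summit of SNHG32, against 0.75 at the ZFAS1 siCONT summit. The strongest by fold enrichment was the 730 bp region. Its summit lay at −978 bp from the start, on the side of ZNFX1, with 67 fragments over 0.704 control fragments.
SNHG31, beside BARD1, went from 82.0 to 52.5 with 108 and 85 fragments over 0.50 and 1.06 control fragments. SNHG15, the host of SNORA9, went from 64.0 to 41.1 with 87 and 70 fragments over 0.60 and 1. DANCR went from 54.9 to 32.1 with 69 and 61 over 0.50 and 1. In each of these 3 genes, fragments changed like those of the other hosts and the control value at the summit was higher in siDLEU1. SNHG22 (33.9 to 14.3, with 43 and 31 fragments) was just outside the size that was called, and SNHG25 (48.5 to 33.1) was the next lower one.

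The 3 that rose were SNHG8, SNHG4 and SNHG10. SNHG8, the host of SNORA24 (chr4:119199858-119206471), went from percentile 38.5 to 80.1, although its fragments went from 100 to 85 and FPM from 4.66 to 2.89. The control value at its summit was 2 fragments in siCONT and 0.44 in siDLEU1, which is the genome-wide background that the peak caller uses as its floor. SNHG10, the host of SCARNA13, went from 76.8 to 99.1, but between regions that did not overlap: the siCONT summit lay at 187 bp from the start and the siDLEU1 summit at −795 bp, on the side of GLRX5, a gene of iron-sulfur cluster assembly. That upstream region was at percentile 53.2 in siCONT with 183 fragments and at 99.1 in siDLEU1 with 153. SNHG4 went from 53.2 to 76.8, and was the only one of the 3 with a higher FPM in siDLEU1 and without a lower control value (0.50 and 0.67). The next higher ones were SNHG9 (77.7 to 87.3) and SNHG6 (67.8 to 75.8).

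These values are tied by construction, since the fold enrichment is the fragment pile-up over the local control. Across all genes with H3K27ac in both lists, the median change in percentile was 11.5 where the control value at the summit was lower in siDLEU1 by more than 0.25 fragments, −4.15 where it was within 0.25, and −24.5 where it was higher by more than that. For the hosts the medians were 5.64 (6 genes), 0.19 (16 genes) and −22.7 (7 genes), and their changes in rank by fragments were −1.55, −2.65 and −1.24. Ranked by fragments instead of fold enrichment, only SNHG22 fell by 20 points or more and only SNHG4 rose. Over all genes, 1274 fell and 128 rose by that ranking. At DANCR the siCONT value of 0.50 is the genome-wide floor and the siDLEU1 value of 1 is a single control fragment at the summit. The part of the control libraries in these rank changes, beyond the values given, was not tested.

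**Figure D3:**
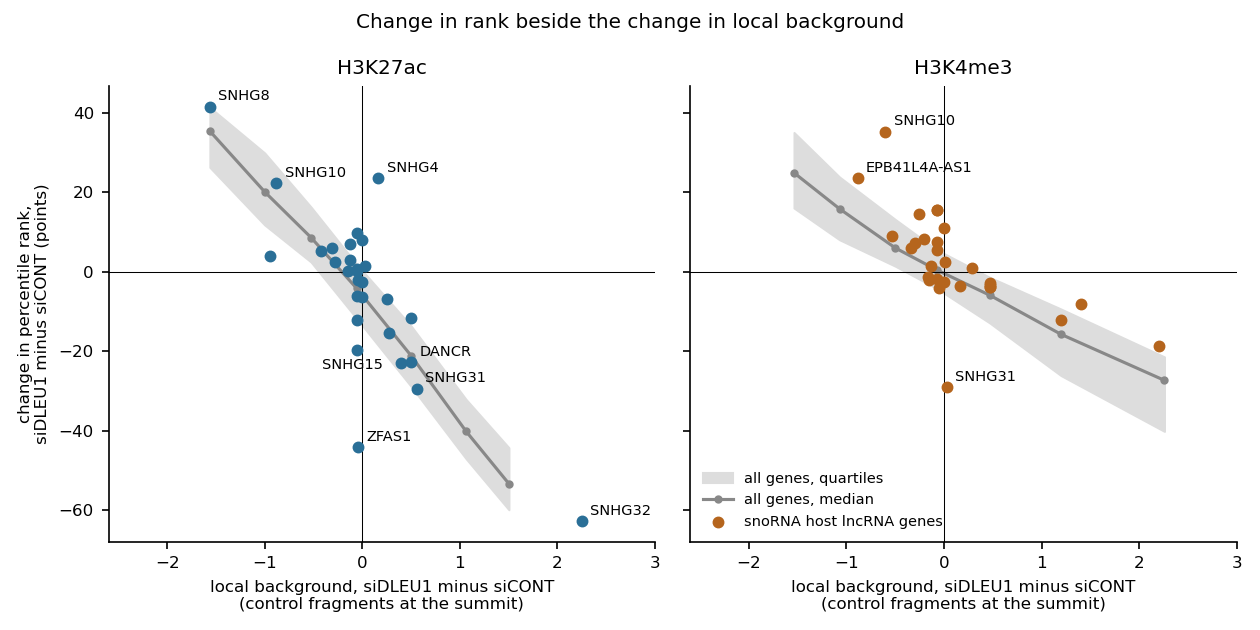
Change in percentile rank (vertical axis, points) against the difference in local background at the strongest summit (horizontal axis, control fragments), both siDLEU1 minus siCONT, for H3K27ac (left) and H3K4me3 (right), with hosts as points and all genes as a line (medians) and a band (quartiles). For H3K27ac SNHG8 lies at the upper left and SNHG32 at the lower right along the all-gene trend, while SNHG4 and ZFAS1 lie away from it. The ZFAS1 point sets a siCONT summit at 201 bp from the start against a siDLEU1 summit at −978 bp. At its siDLEU1 summit at 186 bp, which is not plotted, the local background was 3 control fragments, as at SNHG32.

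In covered length the hosts, like the ribosomal protein genes, lost less H3K27ac than genes in general. H3K27ac regions covered 40.1 kb of the hosts' start-site windows in siCONT and 38.9 kb in siDLEU1, a ratio of 0.970. The same ratio was 0.766 for all genes, 0.759 for other lncRNA genes, 0.835 for protein-coding hosts and 0.902 for ribosomal protein genes. More bases were covered in siDLEU1 at 11 of the 29 hosts, where 6.26% of all genes marked in either list and 28.2% of the ribosomal protein genes had more. The strongest region was wider at 8 of 29, where 10.1% of all genes marked in both lists had a wider one, and 29 of 85 ribosomal protein genes did. At GAS5 the region downstream of the start was 1048 bp in siCONT and 2313 bp in siDLEU1, reaching from chr1:173836018 to chr1:173834777 at its far end. At SNHG29, host of SNORD49A, SNORD49B and SNORD65, it was 1108 and 1811 bp, at SNHG1 1228 and 1832 bp, and at SNHG19, host of SNORD60, 725 and 2077 bp. In these 4 genes FPM was lower in siDLEU1. At SNHG19 (chr16:2204793-2205406, reverse strand) the added bases lay past the annotated end of the gene. At ZFAS1 2451 and 2729 bases were covered. SNHG25 (1468 and 857 bases) and SNHG5 (2176 and 1706) had less. With the windows limited to the canonical start, the ratio was 0.867 against 0.779 for all genes and 0.856 for ribosomal protein genes, and 6 of 28 hosts (21.4%) had more bases covered against 6.26% of all marked genes and 9.41% of ribosomal protein genes. Covered length also moves with depth and with the local control, and their part in it was not tested.

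**Figure D4:**
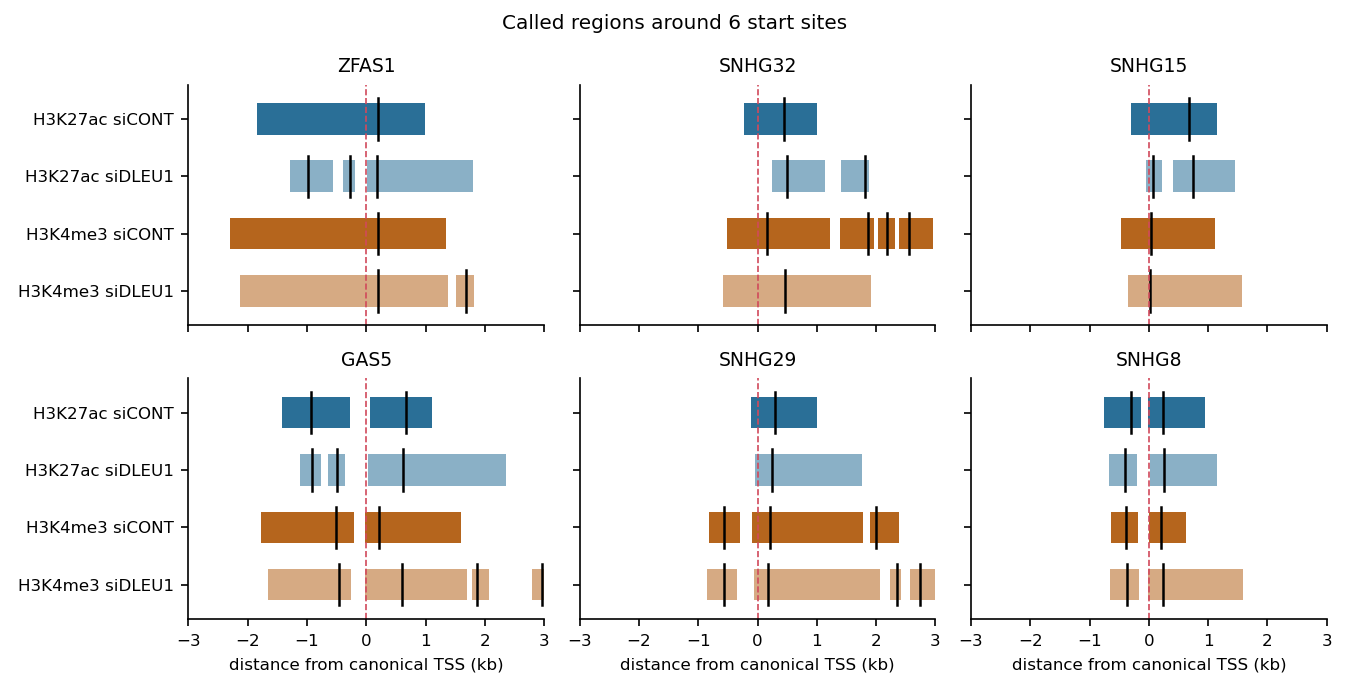
Regions called around the canonical start (dashed line, distance in kb along the direction of transcription) of 6 hosts, with H3K27ac in blue, H3K4me3 in brown, siDLEU1 paler than siCONT, and summits as black ticks. ZFAS1 has 1 H3K27ac region in siCONT and 3 in siDLEU1, and the H3K27ac region downstream of the start is longer in siDLEU1 at GAS5 and SNHG29.

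**Figure D5:**
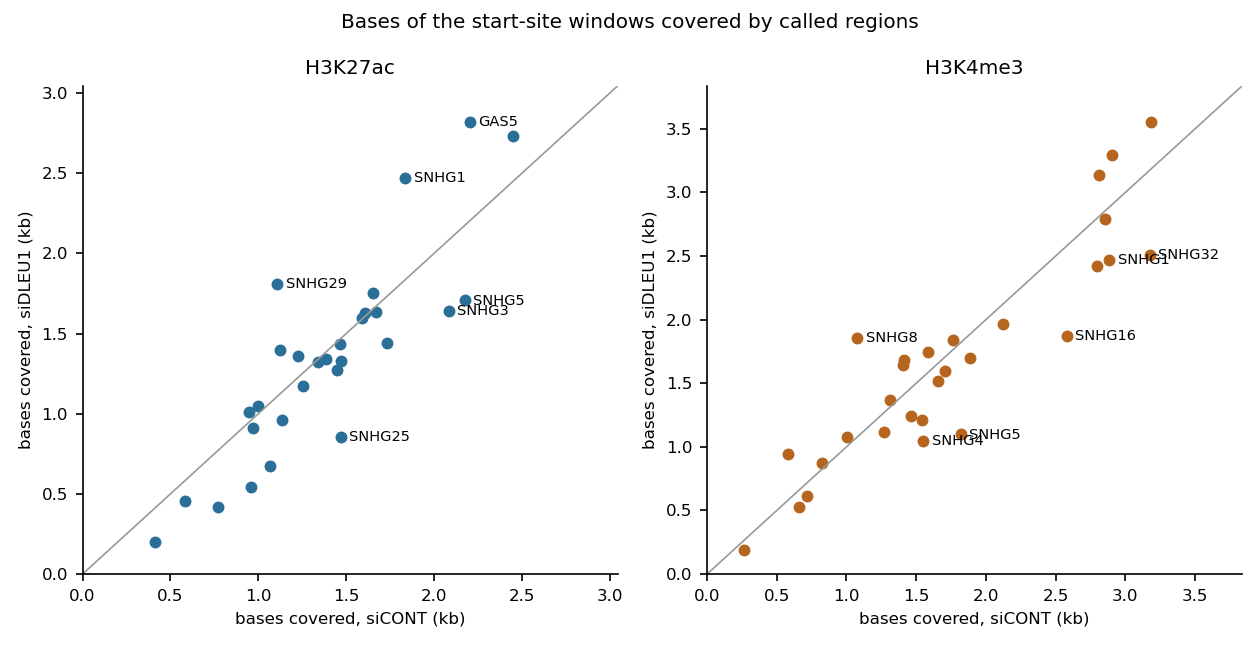
Bases of the start-site windows covered by H3K27ac (left) and H3K4me3 (right) regions in siCONT (horizontal axis, kb) and siDLEU1 (vertical axis, kb), 1 point per marked host, with the line of equal cover and the 6 largest differences named. For H3K27ac 11 hosts lie above the line, GAS5, SNHG1 and SNHG29 furthest, and for H3K4me3 12 do.

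The second comparison asked the same of H3K4me3. Here most hosts had a higher FPM in siDLEU1, and the difference was larger at the median than for genes in general. The median was 3.76 FPM in siCONT (range 1.05 to 6.36) and 4.97 in siDLEU1 (range 1.12 to 8.87), and 27 of the 29 hosts were higher, with a background of 73.1% of all genes marked in both lists. Not scaled for depth, 17 hosts had more fragments in siDLEU1 and 12 had fewer. The median log2 ratio was 0.42, against 0.21 for all genes, 0.16 for other lncRNA genes, 0.32 for protein-coding hosts and 0.51 for ribosomal protein genes. The counting interval lay above the all-gene median at 7 of the 29 (SNHG6, SNHG7, SNHG8, SNHG9, SNHG10, SNHG20 and SNHG29), where 10.5% of all genes marked in both lists had such an interval, and below it at none, where 10.7% did.

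SNHG10 had 71 fragments in siCONT and 115 in siDLEU1 at its highest H3K4me3 summit, or 2.50 and 5.15 FPM, a log2 ratio of 1.05 (counting interval 0.61 to 1.49). SNHG9, the short host of SNORA78 that lies head to head with RPS2, had 74 and 110 fragments, a log2 ratio of 0.92 (0.48 to 1.37). Its siCONT summit lay at 508 bp from the start and its siDLEU1 summit at −387 bp, on the side of RPS2. Downstream of the start the counts were 74 and 85, and upstream they were 68 and 110. SNHG29 had 156 and 198, the latter the highest of any host. In these 3 genes the siDLEU1 count was the higher one although that library was the shallower one.
GAS5 had 181 and 155 fragments (6.36 and 6.95 FPM), SNHG1 138 and 155 (4.85 and 6.95) and ZFAS1 171 and 176 (6.01 and 7.89). The SNHG1 summits lay at 237 bp from the start in siCONT and at −393 bp in siDLEU1. SNHG31 had 50 and 30 fragments and the lowest log2 ratio, −0.39, and SNHG11 had 111 and 86 and a log2 ratio of −0.02. SNHG31 and SNHG11 were the only hosts with a lower FPM, where 26.9% of all genes marked in both lists had one.

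By rank, few hosts moved by 20 points or more in H3K4me3. The median change was 0.95 points, against 0.26 for all genes and 5.35 for ribosomal protein genes, and 14 hosts were lower and 15 higher, where 48.1% of all genes with a siCONT region were lower. SNHG31 fell by 20 points or more, from 62.5 to 33.4, the only such fall against a background of 8.68% of all genes marked in either list. Its strongest regions did not overlap, since the siCONT summit lay at −737 bp from the start and the siDLEU1 summit at 148 bp. SNHG10 (52.1 to 87.4) and EPB41L4A-AS1 (62.8 to 86.4) rose, against a background of 8.71%. At EPB41L4A-AS1 the fragments were 102 and 118, and the control value was 2 in siCONT and 1.12 in siDLEU1. Among the other hosts, ranks were lower at ZFAS1 (96.8 to 78.1) and SNHG32 (93.0 to 80.9), where fragments were 171 and 176 and 139 and 142 but the control values were 0.80 and 3 and 0.80 and 2. Ranks were higher at SNHG9 (78.7 to 94.2), SNHG6 (80.3 to 94.9) and SNHG8 (78.7 to 94.4). At SNHG8 this went from an upstream region in siCONT to the one downstream of the start in siDLEU1. At SNHG9 it went from a downstream region to an upstream one.
H3K4me3 regions covered 50.8 kb of the windows in siCONT and 48.9 kb in siDLEU1, a ratio of 0.963 against 0.926 for all genes. More bases were covered at 12 hosts, with a background of 34.8% of all genes marked in either list, and the strongest region was wider at 13, with a background of 38.3%. Neither share was far from its background. Long H3K4me3 regions over the gene body went both ways, in examples picked for their width. At SNHG3, the host of SNORA73A and SNORA73B (chr1:28832492-28837404), the region downstream of the start was 2819 bp in siCONT and 5081 bp in siDLEU1, where it reached past the annotated end of the gene, with 98 and 113 fragments at its summit. At SNHG26, the host of SNORD93, it was 6601 bp in siCONT and 2788 bp in siDLEU1, with 107 and 96 fragments. These counts are from different places, since the summits lay at 6265 bp from the start in siCONT and at 556 bp in siDLEU1.

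Set side by side, some hosts lay at the upper end for both marks and others did not. SNHG9 had log2 ratios of −0.54 for H3K27ac and 0.92 for H3K4me3, and SNHG6, the host of SNORD87, −0.49 and 0.78, which were above the all-gene medians of −0.79 and 0.21 for both marks. The H3K4me3 ratio of SNHG9 sets a downstream siCONT summit against an upstream siDLEU1 summit. EPB41L4A-AS1 had the lowest H3K27ac log2 ratio of the hosts (−1.04) and an H3K4me3 log2 ratio of 0.56. SNHG4 had the highest H3K27ac log2 ratio (0.05) and an H3K4me3 log2 ratio of 0.19 (−0.20 to 0.59), near the all-gene median. SNHG10 had the highest H3K4me3 log2 ratio and an H3K27ac log2 ratio of −0.71.

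A start site of another gene lay within 1 kb of a start of 13 hosts, and 9 of these neighbours are read from the opposite strand. They were ZBTB37 at GAS5, SLC3A2 at SNHG1, ZNFX1 at ZFAS1, LINC01618 at DANCR, RCC1 at SNHG3, MATR3 at SNHG4, RPS2 at SNHG9, GLRX5 at SNHG10, SEMA5A at SNHG18, TRAF7 at SNHG19, SEC14L1 at SNHG20, ACAA2 at SNHG22 and BARD1 at SNHG31. At 9 of the 13 (all but SNHG1, SNHG18, SNHG20 and SNHG31) the neighbour had the host's percentile in all 4 lists. The values there are those of a shared promoter, and how they divide between the genes cannot be told apart. SNHG18, with no region of its own, differed from SEMA5A only by a weak H3K4me3 region at the latter in siDLEU1, at percentile 12.9.

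The genes that act on snoRNAs and on spliced hosts were taken from lists of the snoRNP core, snoRNP assembly and nonsense-mediated decay. All of them carried both marks with both siRNAs. Of all genes marked in either list, 19.3% fell and 6.98% rose in H3K27ac rank, against which the counts below are to be read. Of 8 core proteins, GAR1 (57.5 to 79.3) and DKC1, the pseudouridine synthase (54.6 to 80.1), rose in H3K27ac rank and FBL, the methyltransferase of C/D box particles, fell (69.7 to 17.2), with a list median of 1.2 points. Of 10 assembly factors, 5 fell and 1 rose, the falls being NOLC1 (79.9 to 24.5), NAF1 (95.4 to 41.4), RPAP3, SHQ1 and ZNHIT3 and the rise ZNHIT6 (53.7 to 84.6), with a list median of −19.0 points against −4.59 for all genes.
Of 10 decay factors, SMG5 (93.0 to 9.06) and UPF1, the central helicase (60.4 to 20.02), fell and UPF3B rose (65.9 to 88.0), with a list median of −4.05 points, so that the counts and median of this list were near those of all genes. SMG5 also fell in H3K4me3 rank (99.3 to 76.9), with 195 fragments in siCONT and 214 in siDLEU1 over control values of 0.6 and 4. Across all genes marked in either list, 8.68% fell by as much in H3K4me3 rank. None of the other listed genes moved by 20 points in H3K4me3. As at the hosts, control values moved with the ranks: they were 0.44 in siDLEU1 against 1 in siCONT at GAR1, DKC1, ZNHIT6 and UPF3B, and 2 against 0.50 at FBL. By fragments, the median log2 ratio was −0.75 for the core, −0.85 for assembly and −0.73 for decay, and SHQ1, with 130 and 82 fragments over a control value of 1 in both, was the only one to fall by 20 points in H3K27ac rank by fragments.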

How the data were processed

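HSC3 ChIP DNA had been sequenced on an Ion Proton, mapped to hg19 with bowtie2 and called with MACS2 by the authors. The deposited peak lists give, per region and separately for each of 4 libraries, a fold enrichment (a ratio of fragment pile-up to local control at the summit), −log10 p-values and q-values, and a score that was not used. The control and the settings of the peak caller are not given in the sources used here, and the 2 input libraries were not analysed. Because fold enrichment is not comparable between lists, it was turned into a percentile rank within each list.

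Regions on chromosomes 1 to 22 and X were assigned to a gene when they overlapped, by at least 1 bp, 1 kb either side of any start of a GENCODE 44 transcript in the hg19 lift. Whole fragments at each summit and the local control value were solved from the deposited fold enrichment and −log10 p, which matched for 100% of regions within 0.001. Library depth follows from these with an assumed genome of 2.7 Gb and the shortest region as fragment length. On simulated lists 99.5% of 5119 fragment counts like those of siDLEU1 H3K27ac were recovered exactly. Those lists were made with the formula that was solved, so they do not check that the deposited lists follow it. Enclosed snoRNAs came from RefSeq GRCh38.p14 by position within the gene, without strand, which departs from the planned same-strand rule. Sequences were read from the GRCh37 (hg19) genome.

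With 1 library per siRNA and mark no test was made. Intervals are exact Clopper-Pearson 95% intervals of the split of fragments between libraries. Hosts are named if they are GAS5, ZFAS1, DANCR, EPB41L4A-AS1 or SNHG1, if they were among the 5 lowest or highest H3K27ac or the 3 lowest or highest H3K4me3 changes, if they had no region, or if they share a start-site window, and others named for their width or fragments were picked after their values were seen. The members and gene lists were chosen with earlier results of these data known. Python 3.11.15 with pandas 2.3.3, scipy 1.17.1 and matplotlib 3.10.9 was used. The alternatives tried were other rankings, windows, a q-value limit, equal list sizes, stitched regions, 1 start per gene and subsets of the hosts.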

Additional observations from a re-analysis of the deposited data

How the results depend on the processing

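The median H3K27ac change in percentile, 0.09, was −2.16 ranked by −log10 p, −2.35 by fragments, −7.61 with −log10 q of at least 10 (all genes −11.2) and 2.18 with equal numbers of regions. Its other alternatives gave 0.09 to 0.19, or −1.06 with only hosts of a RefSeq snoRNA. The count of 5 falls was 1 by fragments, 9 with the q-value limit and 3 with equal numbers, and the count of 3 rises was 1 by fragments. Over all genes, the 2629 falls became 1274, 4501 and 1956 in the same order, and the 952 rises became 128 by fragments. The ratio of H3K27ac bases covered, 0.970, was 0.911 with the q-value limit and 0.867 with 1 start per gene. For H3K4me3 the median change of 0.95 was 4.17 with the q-value limit and −0.20 with 1 start per gene, and the ratio of covered bases, 0.963, was 1.03 with the q-value limit. The single H3K4me3 fall was gone (0) with windows of 3 kb and of 0.5 kb and became 2 with the q-value limit, and the 2 rises were 1 by −log10 p and by fragments and 8 with the q-value limit. No all-gene counts are set beside these H3K4me3 counts, so they cannot tell the hosts from genes in general. The cause of these differences was not tested. Among single hosts, 82 of 202 H3K27ac and 57 of 201 H3K4me3 changes moved by more than 2 points under an alternative, and none that was called changed sign. Changes below the called size did so in both directions. Ranked by fragments, the H3K27ac change went from 4.08 to −14.7 at EPB41L4A-AS1 and from −6.95 to 6.66 at SNHG26.

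Chosen after seeing the data, the limit to hosts whose strongest regions overlap gave a median H3K27ac change of −1.06 and an H3K4me3 change of 0.95, and the log2 ratios of FPM, also added then, were −0.75 and 0.42, or −0.76 and 0.39 with that limit. No paired analysis was possible because each siRNA and mark had 1 library. A rank at a host rests on 31 to 183 H3K27ac fragments and on local controls of up to 3 fragments, and their part in the rank changes was not tested. FPM values rest on the estimated depths and do not separate a change of mark from a change in how well a library was enriched.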
